A study of Rattus norvegicus with 20 samples.

Results

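The genes described here encode the factors that start and extend protein synthesis on the ribosome, namely the eukaryotic initiation factors, the elongation factors, and the kinases, binding proteins and methyltransferases named after them. They were taken by symbol, as all genes whose name begins with Eif1 to Eif6 or with Eef1 or Eef2, leaving out the eIF2 kinase gene Eif2ak3. Of 68 such genes among the 32402 genes of the tables, 65 had a mean of at least 10 normalized counts and are the members. Messenger RNA was measured in the supraoptic nucleus (SON) of the hypothalamus, which holds the magnocellular neurones that make vasopressin and oxytocin, in 20 male Wistar Han rats. There were 5 euhydrated (EH) adult rats aged 3 months, 5 dehydrated (DH) adult rats, 5 EH rats aged 18 months and 5 DH aged rats. DH rats were kept without water for 2 days by the sample labels, and EH rats drank freely. The methods text gives a longer period. The libraries came from punches of tissue that also hold glia, vessels and blood, so fewer cells of a type and less RNA per cell cannot be told apart. By the study's methods the adult and aged rats were handled side by side and their RNA was processed together for sequencing.

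Initiation begins when eIF2, carrying the initiator tRNA and GTP, joins the small ribosomal subunit with eIF1, eIF1A, eIF3 and eIF5. The mRNA is brought in by eIF4F, made of the cap-binding protein eIF4E, the scaffold eIF4G and the RNA helicase eIF4A. Phosphorylation of eIF2 slows its recycling by eIF2B and is the entry point of the integrated stress response, and 4E-binding proteins block eIF4E when they are not phosphorylated by mTORC1. Elongation then runs on eEF1A, which delivers aminoacyl-tRNA, its exchange factors, and eEF2, which moves the ribosome along. Magnocellular neurones are secretory cells that raise the synthesis of their peptide hormones when plasma osmolality rises.

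A library held between 24268398 and 30348118 reads counted on genes, and the members together took 1.05% ± 0.011 (SD, n = 5) of them in adult EH, 1.04% ± 0.019 in adult DH, 1.07% ± 0.016 in aged EH and 1.06% ± 0.017 in aged DH. The values given below are counts divided by the library's size factor, called normalized counts, and the log2 fold change (LFC) is on the scale of log2 of the normalized count plus 1. A gene was called a differentially expressed gene (DEG) when its adjusted p in limma, taken over all genes tested, was under 0.05. Of the fixed markers, vasopressin (Avp), oxytocin (Oxt) and the magnocellular genes Creb3l1, Caprin2 and Rasd1 were all measured, with a summed level of 197014 to 284200 normalized counts in adult EH and 280970 to 379556 in adult DH. Of the 5 genes, 4 were higher with DH in adult rats and 3 in aged rats. With age 1 of the 5 was called higher, and their median LFC was 0.28.

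The upstream sequences of 57 of the 65 members were found by symbol in the RefSeq promoter table of the GRCr8 assembly, which is not the assembly the reads were aligned to. Those of Eef1aknmt, Eef1d, Eif3el1, Eif3h, Eif3i-ps1, Eif4b, Eif4e3 and Eif4ebp1 were not among them. In the 250 bases before the start, the E-box CACGTG, a palindrome and so the same on both strands, stood in 11 of the 57 genes (19.3%), in 5.59% of all 33469 entries and in 8.42% of the 11025 genes with an entry that had a mean of at least 10 in the adult table. The ETS-type sequence CCGGAAG, read on either strand, stood in 19 of 57 (33.3%), against 7.27% of all entries and 14.0% of the expressed genes. A CCAAT sequence on either strand stood in 16 of 57 (28.1%, against 34.0% and 36.1%), TATAAA on either strand in 3 of 57 (5.26%, against 12.9% and 7.27%), the cyclic AMP response element TGACGTCA in 1 of 57 (1.75%, against 1.59% and 2.86%) and the C/EBP-ATF type sequence TGATGNAA on either strand in 2 of 57 (3.51%, against 3.40% and 1.94%). These are matches of letters, and binding was not measured.

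Windows of 80 bases are shown, 5′ to 3′ on the gene's own strand, for the helicase pair Eif4a1 and Eif4a2. Their mRNAs moved in opposite directions with DH in adult rats. Windows are also shown for Eif5a, Eif3b and Eif4g1, the members with an E-box that were called higher in adult DH. The rest of the 11 members with an E-box were not called there, and 23.1% of all members were called higher. Capitals mark the CCAAT sequence in Eif4a1, TATAAA in Eif4a2 and the E-box in the others.
Eif4a1 (GRCr8 chr10:54888603-54888682, minus strand): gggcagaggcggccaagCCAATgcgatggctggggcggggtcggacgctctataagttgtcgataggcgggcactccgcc
Eif4a2 (GRCr8 chr11:91275324-91275403, minus strand): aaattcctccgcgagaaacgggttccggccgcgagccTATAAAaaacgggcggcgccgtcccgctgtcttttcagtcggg
Eif5a (GRCr8 chr10:55143385-55143464, minus strand): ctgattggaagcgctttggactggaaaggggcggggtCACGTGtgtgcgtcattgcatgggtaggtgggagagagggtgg
Eif3b (GRCr8 chr12:19334783-19334862, minus strand): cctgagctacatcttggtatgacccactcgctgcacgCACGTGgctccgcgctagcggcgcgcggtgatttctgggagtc
Eif4g1 (GRCr8 chr11:93746379-93746458, minus strand): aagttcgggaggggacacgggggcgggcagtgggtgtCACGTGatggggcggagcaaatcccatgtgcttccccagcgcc
The Eif4a1 and Eif4a2 windows end at the base before the annotated start, and the first base of the E-box lies 206 bases before the start in Eif5a, 57 in Eif3b and 54 in Eif4g1.

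DH in adult rats changed 19 of the 65 members, 15 of them higher and 4 lower in DH by limma. These are 23.1% and 6.15% of the members. Over all 15280 genes tested, 7.67% were called higher and 4.99% lower, so the share of members called lower was near that of all genes. The members' median LFC was 0.03 and their median absolute LFC 0.082, against -0.01 and 0.092 over all genes tested, so most changes were small. The values of 19 members (29.2%) did not overlap between the groups, against 10.9% of all genes. These hold 17 of the called members with Eef1a1 and Eef1akmt4. Eif4ebp1, Eif4a2, Eif4b, Eef1e1, Eif4g1, Eif3b and Eif1a kept their call under every alternative run, and the other 12 lost it under at least 1. With RNA integrity as covariate 8 members were called, 6 higher and 2 lower, while the count over all genes fell from 1934 to 1005. All adult EH rats had the same RNA integrity value, so this covariate varied only among the DH rats. Scaling sets the balance of the calls, since with libraries brought to equal totals 10 members were called higher and 8 lower, and with quantile normalization 12 and 7.

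Dehydration of aged rats changed 6 members by limma, 4 higher (6.15% of members) and 2 lower (3.08%). Of the 15346 genes tested 4.05% and 3.25% were called, so in this fit both shares of the members were near those of all genes. All 6 were also DEGs in adult DH with the same direction, and Eif4ebp1, Eif4a2 and Eef1e1 kept their call under every alternative run. The values of 8 members (12.3%) did not overlap, against 7.05% of all genes. With equal totals the split was 4 higher and 4 lower, and with quantile normalization 4 and 5. The count of members rose to 16 of 65 (11 higher, 5 lower) when the spread was estimated over all 20 rats in limma. With DESeq2 on the reads it rose to 14 (10 higher, 4 lower). The count over all genes rose from 1119 to 1555 of 15326 and to 1533 of 15346. In these 2 runs the share of members called was above that of all genes. The adult and aged comparisons share no rats, and across the 65 members Pearson's r between their LFCs was 0.889 and Spearman's rho 0.784, with 55 members on the same side of 0. Without Eif4ebp1, Pearson's r was 0.819 over 64 members. Over the 15159 genes tested in both, r was 0.488 and rho 0.440, with 66.5% on the same side. These are correlations across genes, which are not independent replicates. The members also varied less between rats, with a median residual SD of 0.061 in adult DH and 0.066 in aged DH. Over all genes tested it was 0.106 and 0.112, and its part in the correlations and the calls was not tested.

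**Figure D1:**
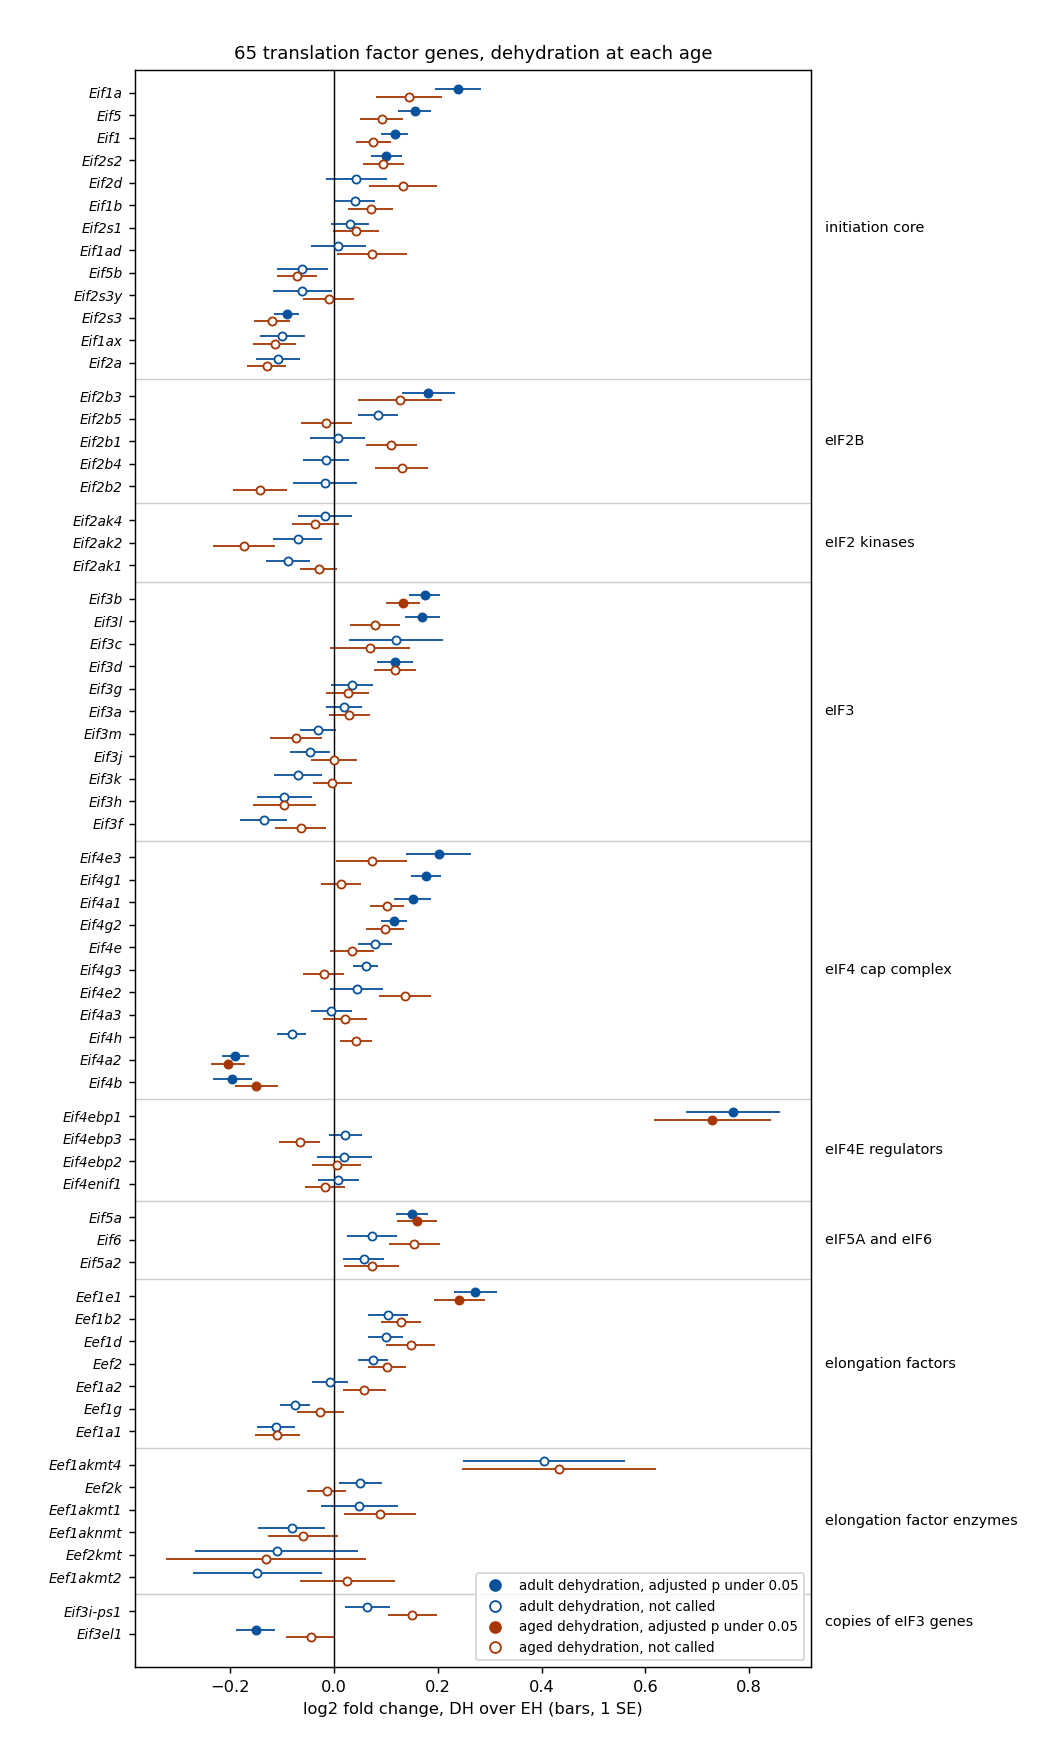
LFC (DH over EH, log2 scale, x axis) of each of the 65 members, sorted by role and by adult LFC, in adult rats (blue) and aged rats (brown), with bars of 1 SE and filled points for adjusted p under 0.05. Most points lie within 0.2 of 0 at both ages, and Eif4ebp1 stands apart at 0.77 and 0.73.

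The eIF4E-binding proteins held the member with the largest change. Eif4ebp1 (ENSRNOG00000012582), which encodes 4E-BP1, the inhibitor of eIF4E that mTORC1 controls, had 173, 190, 204, 217 and 243 normalized counts in the adult EH rats and 319, 329, 352, 367 and 380 in the adult DH rats. Every DH rat lay above every EH rat, and the LFC was 0.77 ± 0.09 (SE), or 70.5% higher, with an adjusted p of 9.26e-05 in limma. In aged rats the values were 251, 263, 268, 290 and 328 in EH and 349, 456, 456, 539 and 540 in DH. Again no values overlapped, with an LFC of 0.73 ± 0.11 and an adjusted p of 0.00184 in limma. The other 3 genes of this group, Eif4ebp2, Eif4ebp3 and the eIF4E transporter gene Eif4enif1, were not called, and their LFCs lay between 0.01 and 0.02 in adult rats and between -0.07 and 0.01 in aged rats.

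Eif4ebp1 was also the single member called with age. In the table that compares the EH rats, its values were 180, 198, 213, 227 and 253 in adult rats and 252, 263, 269, 290 and 328 in aged rats, where 1 aged rat lay just below the highest adult rat. The LFC was 0.39 ± 0.10 with an adjusted p of 0.0371 in limma. That call was lost when any of 6 single rats was left out (EH rats 1, 2 and 4 of the aged group or 1, 2 and 6 of the adult group), with an adjusted p of up to 0.0816. The call was also lost without the trend in limma (0.0694) and with replicate number as a block. The ageing comparison shares its adult EH rats with adult DH and its aged EH rats with aged DH.

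**Figure D2:**
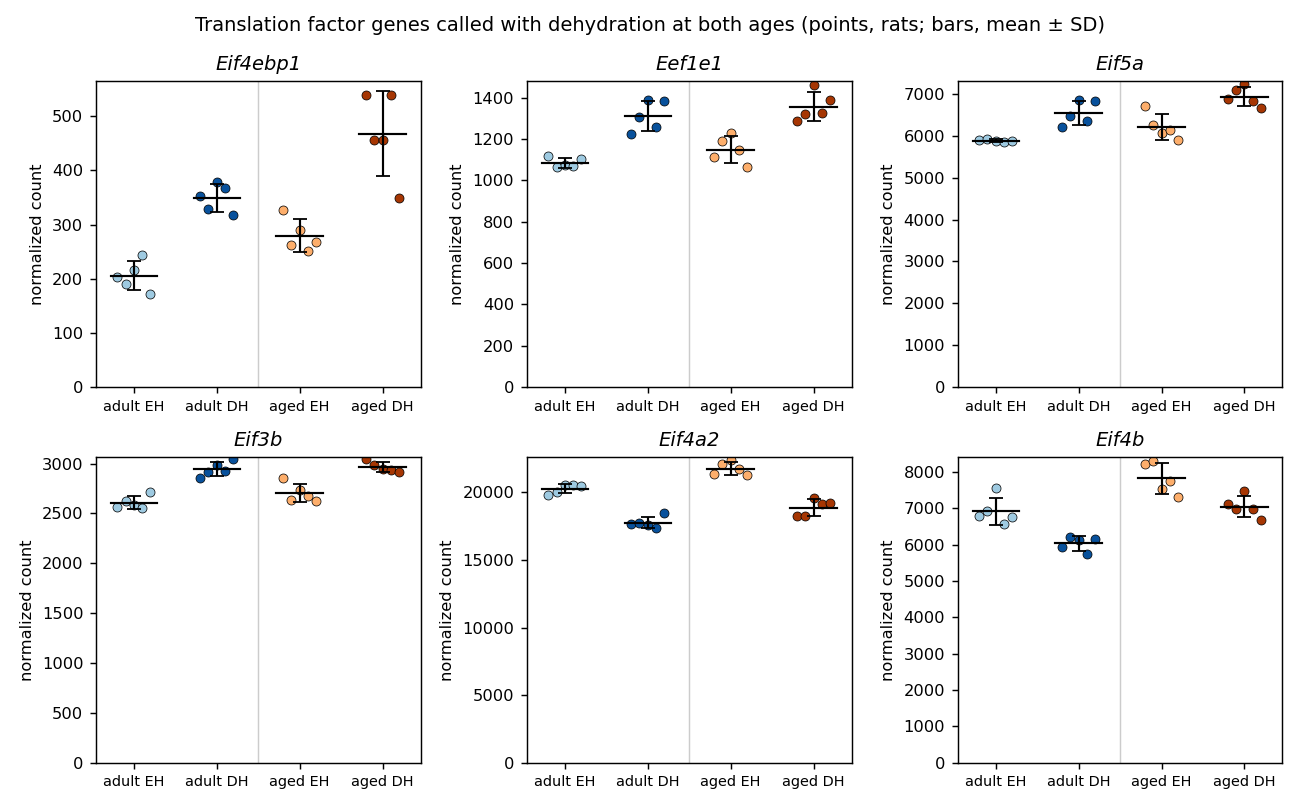
Normalized counts (y axis, from 0) of the 6 members called with DH at both ages, for each rat of the 4 groups, with bars of mean ± SD. Eif4ebp1 rose from a mean of 205 to 349 in adult and from 280 to 468 in aged rats, and Eif4a2 and Eif4b were lower with DH at both ages.

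The eIF4F genes and their partners moved in both directions in adult DH, with 4 of 11 called higher and 2 lower. The helicase gene Eif4a2 (ENSRNOG00000001815) had 19842, 20030, 20470, 20543 and 20544 normalized counts in adult EH and 17404, 17587, 17673, 17727 and 18492 in adult DH. The groups did not overlap, and the LFC was -0.19 ± 0.03 with an adjusted p of 3.03e-04 in limma. In aged rats it fell from a mean of 21769 ± 466 (SD, n = 5) to 18890 ± 604, without overlap, with an LFC of -0.21 ± 0.03 and an adjusted p of 0.00208 in limma. The other helicase gene of initiation, Eif4a1 (ENSRNOG00000030628), had 4960, 5224, 5322, 5550 and 5576 in adult EH and 5656, 5891, 5912, 5930 and 6165 in adult DH. It thus rose where Eif4a2 fell, with an LFC of 0.15 ± 0.04 and an adjusted p of 0.0141 in limma, which reached 0.116 with RNA integrity as covariate. In aged rats its LFC was 0.10 ± 0.03, which was not called (adjusted p = 0.0845 in limma). The related Eif4a3, a core protein of the exon junction complex, was not called in either comparison.

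Within each rat, the ratio of Eif4a1 to Eif4a2 counts, which is not a ratio of molecules because transcript lengths were not used, removes the library scaling. It was 0.241, 0.263, 0.266, 0.270 and 0.272 in adult EH and 0.319, 0.321, 0.333, 0.340 and 0.350 in adult DH. In aged rats it was 0.247, 0.250, 0.252, 0.257 and 0.263 in EH and 0.297, 0.303, 0.311, 0.328 and 0.331 in DH. The DH rats stood above the EH rats at both ages with no overlap, by 1.27 times in adult and 1.24 times in aged rats. The exact two-sided permutation p was 0.00794 in each, the smallest that 5 against 5 rats allow. It was 0.0476 after Benjamini-Hochberg adjustment over the 18 ratio tests made, which were 6 gene pairs in 3 comparisons. The pairs were chosen with earlier results of these data known, and the adjustment does not cover that choice. The ratio did not differ beyond the spread between aged and adult EH rats (0.967 times, exact permutation p = 0.206, adjusted 0.310).

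Of the other 5 pairs, Eif4ebp1 over Eif4ebp2 was 1.69 times higher in adult DH (exact permutation p = 0.00794, adjusted 0.0476). In aged DH it was 1.65 times higher (exact permutation p = 0.0159, adjusted 0.0714), with 1 DH rat just inside the EH range. Eef1a1 over Eef1a2, the general form of eEF1A and the form of neurones and muscle, was 0.930 times as high in adult DH (exact permutation p = 0.0556, adjusted 0.125) and 0.890 times in aged DH (exact permutation p = 0.0397, adjusted 0.102). Eif4g1 over Eif4g3 was 1.08 times higher in adult DH (exact permutation p = 0.0238, adjusted 0.0714). Eif5a over Eif5a2 and Eif1 over Eif1b had adjusted exact permutation p-values between 0.127 and 0.913 in all 3 comparisons.

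**Figure D3:**
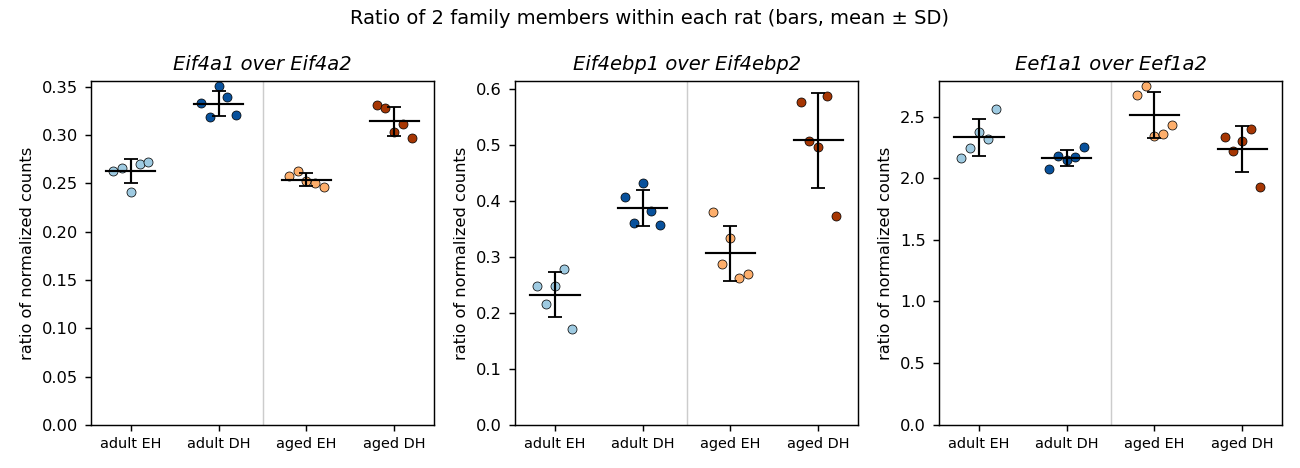
Ratio of normalized counts of 2 related genes within each rat (y axis, from 0) in the 4 groups, with bars of mean ± SD. For Eif4a1 over Eif4a2 the DH rats (0.297 to 0.350) lie above all EH rats (0.241 to 0.272), while the DH and EH ranges of Eef1a1 over Eef1a2 overlap.

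The scaffold gene Eif4g1 (ENSRNOG00000001738) had 4198, 4224, 4308, 4316 and 4547 normalized counts in adult EH and 4802, 4821, 4828, 4873 and 5079 in adult DH. It was higher without overlap, with an LFC of 0.18 ± 0.03 and an adjusted p of 0.00155 in limma. In aged rats the means were 4659 ± 241 (SD, n = 5) in EH and 4699 ± 136 in DH, and the LFC was 0.01 ± 0.04 (adjusted p = 0.891 in limma), a value that falls just below 0 with equal totals or quantile normalization. The response of Eif4g1 in aged less that in adult rats was -0.16 ± 0.05, and this difference, with the lowest p of the members, was not called (adjusted p = 0.265 in limma). The eIF4G-like gene Eif4g2, whose protein lacks the eIF4E-binding part, rose in adult DH with an LFC of 0.12 ± 0.03 (adjusted p = 0.00966 in limma), a call that quantile normalization did not keep (adjusted p = 0.0535). Its LFC in aged DH was 0.10 ± 0.04 (adjusted p = 0.128 in limma).

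Eif4b (ENSRNOG00000010103), whose protein stimulates the helicase, had 6566, 6754, 6784, 6934 and 7547 normalized counts in adult EH and 5735, 5928, 6133, 6163 and 6209 in adult DH. It was lower in every DH rat, with an LFC of -0.20 ± 0.04 and an adjusted p of 0.00422 in limma. In aged rats the values were 7309, 7540, 7748, 8219 and 8289 in EH and 6685, 6975, 6986, 7106 and 7469 in DH, where the highest DH rat lay inside the EH range. The LFC was -0.15 ± 0.04 with an adjusted p of 0.0428 in limma. Eif4e3, an eIF4E relative, was called higher in adult DH at an adjusted p of 0.0493 (LFC 0.20 ± 0.06, limma). The cap-binding gene Eif4e itself was not called, and the 5 eIF4 genes not called had LFCs between -0.08 and 0.08 in adult DH.

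Among the 13 genes grouped as core initiation factors, 4 were higher and 1 was lower in adult DH, and none was called in aged DH by limma. Eif1a (ENSRNOG00000031421), an eIF1A gene, had 1172, 1287, 1333, 1344 and 1357 normalized counts in adult EH and 1475, 1499, 1516, 1546 and 1617 in adult DH. The groups were apart, with an LFC of 0.24 ± 0.04 and an adjusted p of 0.00322 in limma. Its relative Eif1ax, which may share reads with it, was not called. The GTPase activator gene Eif5 rose from 6291 ± 228 (SD, n = 5) to 7004 ± 205, an LFC of 0.16 ± 0.03 (adjusted p = 0.00606 in limma). The start codon fidelity gene Eif1 rose from 4946 ± 128 to 5362 ± 62, an LFC of 0.12 ± 0.03 (adjusted p = 0.0105 in limma).

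The eIF2 subunits did not move together in adult DH. The beta subunit gene Eif2s2 was called higher with an LFC of 0.10 ± 0.03 (adjusted p = 0.0392 in limma), and the alpha subunit gene Eif2s1, which carries the regulatory phosphorylation site, was not called. The gamma subunit gene Eif2s3 (ENSRNOG00000060793) had 3253, 3262, 3273, 3274 and 3277 normalized counts in adult EH and 2994, 3041, 3067, 3113 and 3117 in adult DH. It was lower in every DH rat by a small amount, with an LFC of -0.09 ± 0.02 and an adjusted p of 0.0278 in limma. In aged rats its LFC was -0.12 ± 0.03, again with no overlap, at an adjusted p of 0.0524 in limma, and that value fell under 0.05 with edgeR (0.0404) and DESeq2 (0.0181) on the reads. Its Y-linked copy Eif2s3y, which may share reads with it, was not called. In aged DH the LFCs of the 13 genes lay between -0.13 for Eif2a, an alternative initiator tRNA factor (adjusted p = 0.0505 in limma), and 0.14 for Eif1a.

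Of the 5 subunit genes of eIF2B, the exchange factor that recharges eIF2, Eif2b3 was called higher in adult DH with an LFC of 0.18 ± 0.05 (adjusted p = 0.0337 in limma). The other 4 had LFCs between -0.02 and 0.08, and none of the 5 was called in aged DH. The 3 eIF2 kinase genes among the members, Eif2ak1 (activated by lack of haem), Eif2ak2 (by double-stranded RNA) and Eif2ak4 (by uncharged tRNA), were not called in any comparison, with LFCs between -0.09 and -0.02 in adult DH and between -0.17 and -0.03 in aged DH.

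The scaffold complex eIF3 had 3 of the 11 subunit genes measured higher in adult DH and 1 in aged DH. Eif3e and Eif3i, which encode further subunits, were not among the symbols taken. Eif3b (ENSRNOG00000001253) had 2559, 2560, 2589, 2620 and 2718 normalized counts in adult EH and 2860, 2918, 2921, 2985 and 3041 in adult DH. It did not overlap, with an LFC of 0.17 ± 0.03 and an adjusted p of 0.00167 in limma. In aged rats it had 2625, 2639, 2672, 2736 and 2856 in EH and 2913, 2936, 2946, 2988 and 3043 in DH, also apart, with an LFC of 0.13 ± 0.03 and an adjusted p of 0.0276 in limma. Eif3l rose in adult DH from 1646 ± 60 (SD, n = 5) to 1851 ± 37, an LFC of 0.17 ± 0.03 (adjusted p = 0.00506 in limma). Eif3d, whose protein can itself bind the cap, was called higher with an LFC of 0.12 ± 0.03 (adjusted p = 0.0402 in limma), and its LFC in aged DH was 0.12 ± 0.04 (adjusted p = 0.105). The other 8 subunits had LFCs between -0.14 and 0.12 in adult DH. Eif3el1, a locus named as Eif3e-like, was called lower in adult DH with an LFC of -0.15 ± 0.04 (adjusted p = 0.0169 in limma). It and Eif3i-ps1, named as a pseudogene of Eif3i, may take reads from near-identical copies, so their values are uncertain.

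Among the 7 elongation factor genes, Eef1e1 (ENSRNOG00000016390) alone was called, and it rose at both ages. It encodes a scaffold protein of the multi-tRNA synthetase complex that is related to the eEF1 subunits. It had 1064, 1070, 1073, 1101 and 1119 normalized counts in adult EH and 1227, 1256, 1308, 1385 and 1388 in adult DH. The LFC was 0.27 ± 0.04 with an adjusted p of 8.34e-04 in limma. In aged rats the values were 1065, 1112, 1145, 1192 and 1228 in EH and 1285, 1323, 1328, 1388 and 1461 in DH, for an LFC of 0.24 ± 0.05 and an adjusted p of 0.00869 in limma. No values overlapped at either age.

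The eEF1A gene Eef1a1 was lower in every adult DH rat than in any adult EH rat (40015 ± 1498 against 43263 ± 1809 normalized counts, SD, n = 5), yet was not called. Its LFC was -0.11 ± 0.04 in adult DH (adjusted p = 0.0566 in limma) and -0.11 ± 0.04 in aged DH (adjusted p = 0.147). With equal totals (adjusted p = 0.0251) and with DESeq2 (0.0202) it was called lower in adult DH. The translocation factor gene Eef2 and the exchange factor genes Eef1b2, Eef1d and Eef1g were not called, and the 6 uncalled elongation factors lay between -0.11 and 0.10 in adult DH and between -0.11 and 0.15 in aged DH.

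Eif5a (ENSRNOG00000016478) encodes the hypusine-bearing factor that helps the ribosome through stretches where peptide bonds form slowly. It had 5851, 5872, 5878, 5906 and 5917 normalized counts in adult EH and 6202, 6341, 6467, 6824 and 6853 in adult DH. The groups were apart, with an LFC of 0.15 ± 0.03 and an adjusted p of 0.00632 in limma. In aged rats it had 5887, 6074, 6148, 6249 and 6705 in EH and 6654, 6821, 6877, 7092 and 7237 in DH, so that the lowest DH rat lay inside the EH range. The LFC was 0.16 ± 0.04 with an adjusted p of 0.0216 in limma. Eif5a2 and Eif6, which keeps the large subunit from joining too early, were not called. Of the 6 genes for enzymes that modify elongation factors, including the eEF2 kinase gene Eef2k, none was called. The largest LFC among them was that of the methyltransferase gene Eef1akmt4, a low-count gene with 23.7 ± 2.7 normalized counts in adult EH and 31.6 ± 2.3 in adult DH (SD, n = 5), which was 0.40 ± 0.16 in adult DH (adjusted p = 0.109 in limma) and 0.43 ± 0.19 in aged DH (adjusted p = 0.194).

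Ageing alone changed 1 of the 65 members (1.54%) in limma, Eif4ebp1 above, and none was lower. Of the 15369 genes tested 2.69% were called higher and 3.30% lower with age. With equal totals 1 member was called higher and 2 lower, with quantile normalization 2 and 1, and DESeq2 on the reads called 6 and 2. The members' LFCs ran from -0.18 to 0.39 with a median of 0.03, which with equal totals was -0.00080. At an unadjusted p under 0.05 there were 17 members (26.2%), against 20.3% of all genes tested. The values of 3 members (4.62%) did not overlap between the EH groups, against 6.38% of all genes. These were Eif2s3, higher with age at an LFC of 0.11 ± 0.03 (adjusted p = 0.0519 in limma), and Eif4e2 and Eif4h, lower with age at -0.18 ± 0.05 (adjusted p = 0.0567) and -0.10 ± 0.03 (adjusted p = 0.0643). Eif4e2 encodes a cap-binding relative of eIF4E and Eif4h a helicase partner like eIF4B, and Eif4h was picked out after its values were seen.

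The test of whether DH acted differently at the 2 ages called no member in limma, edgeR or DESeq2. In limma it called 0.0% of the 15326 genes tested, and DESeq2 called 55 genes, none of them a member. At an unadjusted p under 0.05 there were 3 members, Eif4g1, Eif4h (0.12 ± 0.04) and Eif2b4 (0.15 ± 0.07), where 9.93% of all genes passed. For Eif4ebp1 the difference, aged less adult, was -0.04 ± 0.15, and the range of 2 SE on either side ran from -0.35 to 0.26. The unequal counts of members called at the 2 ages are thus not matched by a called difference for any of them.

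Around these members, 57 further genes of translation and of the integrated stress response, in 7 lists, were tested by limma. Of these, 11 were called higher and 2 lower in adult DH, 5 higher and 0 lower in aged DH, and 2 higher and 0 lower with age. Over all genes tested, 7.67% were called higher and 4.99% lower in adult DH, 4.05% and 3.25% in aged DH, and 2.69% and 3.30% with age. The lists are short, so a count of 1 or 2 genes called in a list is not read as a result about that list. The 8 genes of eIF2 dephosphorylation and integrated stress response output held 5 of the 11 called higher in adult DH. They also held all 5 called in aged DH and all those called with age. No gene of the other lists was called in aged DH or with age. Atf4, the transcription factor translated when eIF2 is phosphorylated, had an LFC of 0.52 ± 0.03 in adult DH (adjusted p = 4.87e-07 in limma) and 0.43 ± 0.07 in aged DH (adjusted p = 0.00177). Ppp1r15a, which encodes the inducible subunit of the eIF2 phosphatase, had 0.41 ± 0.05 and 0.33 ± 0.06. The kinase-inhibiting chaperone gene Dnajc3 had 0.37 ± 0.07 and 0.29 ± 0.07, Ddit3 (CHOP) 0.28 ± 0.05 and 0.30 ± 0.07, and the pseudokinase gene Trib3 1.56 ± 0.31 and 1.21 ± 0.34. With age Atf4 and Ddit3 were called higher, at 0.27 ± 0.06 and 0.28 ± 0.07 (adjusted p = 0.0215 and 0.0310 in limma). The median of the list was 0.32 in adult DH, 0.30 in aged DH and 0.15 with age, while Ppp1r15b, Nck1 and Nck2 were not called in any comparison.

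**Figure D4:**
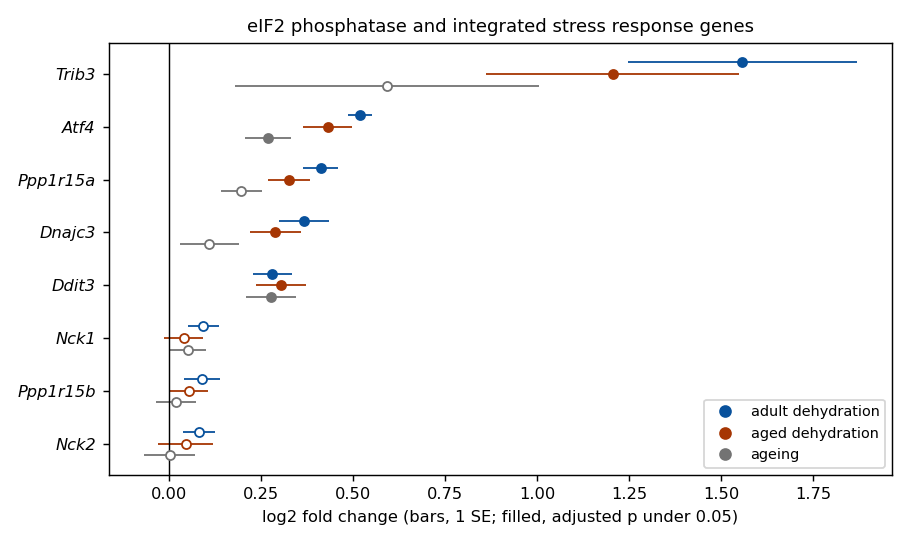
LFC (x axis, log2 scale) of the 8 genes of eIF2 dephosphorylation and integrated stress response output in adult DH, aged DH and ageing, with bars of 1 SE and filled points for adjusted p under 0.05. In both DH comparisons 5 genes are filled, with Trib3 at 1.56 and 1.21 and Atf4 at 0.52 and 0.43.

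Of the 16 genes of mTORC1 and its kinases, the activator gene Rheb was higher (0.14 ± 0.03, adjusted p = 0.00627 in limma) and Pdcd4, an inhibitor of eIF4A, was lower (-0.15 ± 0.03, adjusted p = 0.00356) in adult DH, and none was called in aged DH or with age. Of 5 genes for poly(A)-binding proteins and proteins that interact with them, Pabpc1 (0.11 ± 0.03) and Paip2 (0.10 ± 0.03) were higher in adult DH. Paip2 encodes an interacting protein. The initiation helicase gene Ddx3x (0.10 ± 0.03), 1 of 6 in its list, was also higher. The release factor gene Etf1 (0.17 ± 0.04) and the ribosome rescue gene Pelo (0.29 ± 0.06), 2 of the 4 termination genes tested, were higher, and Dph1, a gene of diphthamide synthesis on eEF2, was lower (-0.26 ± 0.05). None of the 9 mitochondrial translation factor genes was called in any comparison.

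Markers of other cells moved with some of these comparisons. The 6 blood genes summed to 27337 to 54710 normalized counts in adult EH and 15722 to 37972 in adult DH, and to 22609 to 57457 in aged EH and 17140 to 35423 in aged DH, with 1 of 6 called lower in each by limma. The 6 oligodendrocyte markers ranged in sum from 252853 to 371166 in adult EH and from 241590 to 309009 in adult DH. In aged rats they ranged from 235216 to 285387 in EH and from 258285 to 307511 in DH. Their median LFC was -0.17 in adult DH and 0.12 in aged DH, and the differences between ages, 0.25 to 0.37, were not called. Cnp was lower in adult DH, Mobp was higher in aged DH and 4 of 6 were lower with age. With age 2 of 6 microglial markers were higher, and 2 of 6 astrocyte and 2 of 5 endothelial markers were lower. With DH no astrocyte or microglial marker was called, and 1 of 5 endothelial markers was higher in adult rats. Of the 5 neuronal markers, Tubb3 was higher in both DH comparisons and Nefl lower in adult DH. Their part in the members' changes was not tested.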

How the data were processed

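RNA-seq of SON punches from 20 rats was analysed from 3 tables, 1 per comparison. The authors mapped reads to Rn6 (STAR) and assigned them to genes (featureCounts). The signal deposited by the authors is this count over the rat's DESeq2 size factor. Versions of both were not given in the sources used here. Also in the tables stand the authors' own fold changes, errors, p-values and group means, which were not used. All 30 columns of single rats were used.

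Genes with a mean of at least 10 were tested as log2(normalized count + 1) with limma 3.58.1 (R 4.3.3, trended empirical Bayes, two-sided, Benjamini-Hochberg over all genes, 0.05). The difference between ages was fitted over all 20 rats. Whole reads were recovered in every library (at least 99.9% of values within 0.01 read) and rounded for edgeR 4.0.16 and DESeq2 1.42.0. Ratios were compared by exact permutation over rats (scipy). The limma, edgeR and DESeq2 fits were checked on simulated data of the adult DH design. The permutation test and the difference between ages were not checked in this way. Members, lists and pairs were chosen with earlier results of these data known. Genes were named if called, if in a pair, or as the extremes of a group. The RNA integrity values used as a covariate came from the study's supplement. Rats of a group are separate animals.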

Additional observations from a re-analysis of the deposited data

Results flagged for a closer look

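Among 52 groups of 5 rats behind the called values, 3 held a rat whose distance from its nearest neighbour was more than 0.71 of the group's range, a limit that chance passes in about 1 of 20 groups. For Eif4g1 in adult DH, rat 1 had 5078.8 normalized counts and the next 4873.0 (0.744 of the range). For Eif2b3 in adult EH, rat 4 had 419.2 and the next 391.9 (0.715). For Eif1 in adult DH, rat 3 had 5470.4 and the next 5355.7 (0.765). Eif4g1 and Eif1 were called with any single rat left out, and Eif2b3 was not.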

How the results depend on the processing

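The alternatives were the pseudocount, the minimum mean, equal library totals, quantile normalization, no trend, RNA integrity as covariate, a replicate block, each rat left out, edgeR and DESeq2 on the reads and, in DH, all 20 rats in limma. edgeR on the reads of all 20 rats was added after the data had been seen. Of the 19 members called in adult DH, 7 kept their call under every setting, and 3 of 6 in aged DH. In adult DH 8 were called with RNA integrity as covariate and 9 with the replicate block, and 14 to 18 with a rat left out. The count over all genes fell from 1934 to 1005 with RNA integrity and to 987 with the replicate block. In DH that block rests on fewer rats, those whose number stands in both groups. In aged DH 3 were called without the trend, 14 with DESeq2, 16 with all 20 rats and 16 with edgeR on all 20, and 3 to 8 with a rat left out (3 without aged EH rat 5 or aged DH rat 2). In ageing 2 were called with a pseudocount of 10, 2 at a minimum mean of 50, 2 with edgeR, 3 with equal totals, 3 with quantile normalization, 0 without the trend, 8 with DESeq2 and 7 with edgeR on all 20, and 0 to 4 with a rat left out. The difference between ages stayed at 0 in every setting. Equal totals moved the median LFC of all genes to -0.03 in ageing and in adult DH.

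With single rats left out, calls in adult DH were lost for Eif3d (8 of 10, all but EH 4 and 6, adjusted p in limma up to 0.0989), Eif2s2 (8, all but EH 6 and DH 4, 0.0909), Eif2b3 (8, all but EH 4 and DH 4, 0.0797), Eif4e3 (7, all but EH 1, EH 5 and DH 4, 0.119) and Eif2s3 (6, EH 1, 4 and 5 and DH 1 to 3, 0.0649). In aged DH they were lost for Eif3b (7, all but EH 1, EH 4 and DH 6, 0.0721), Eif4b (7, all but EH 4, EH 6 and DH 3, 0.0986) and Eif5a (4, EH 5, EH 6, DH 2 and DH 3, 0.0583). The Eif4g1 LFC in aged DH was -0.0021 with equal totals, -0.0022 with quantile normalization and -0.0056 to 0.0429 with a rat left out, and the Eif4ebp1 difference between ages was 0.0249 with the replicate block and -0.104 to 0.0602 with a rat left out. The cause of these shifts was not tested.

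Replicate numbers do not pair rats across groups (same-number correlations of deviations from -0.083 to 0.162). The DH groups do not carry all the numbers of their EH groups. There the block takes the DH effect only from rats whose number stands in both groups. With the replicate block 1 member was called in ageing, 9 in adult DH and 4 in aged DH. In ageing this was Eif2ak2 (adjusted p = 0.0374 in limma) and no longer Eif4ebp1 (0.0526).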
